A study of Mus musculus with 26 samples.

Results

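The genes described are those of the T cell receptor complex and its partners on the T cell surface, measured in whole mouse lung. They are Cd3d, Cd3e, Cd3g, Cd247, Cd4, Cd8a, Cd2, Cd5 and Thy1, chosen by name, and all 9 were measured among the 12394 genes with a single-symbol probe set. RNA came from the left lungs of male mice aged 6-8 weeks, on 26 Affymetrix arrays. The mice were Il10-/- (strain written B6.129P2-Il10tmlCgn/J in the sample labels, which lacks the anti-inflammatory cytokine IL-10 in every cell) or Il10+/+ (strain C57BL/6), and were kept in filtered air for 24 or 48 hr or in 0.3 ppm ozone (O3) for 24, 48 or 72 hr. Each genotype had 2 arrays at each air time, pooled here as 4 air arrays, and 3 at each O3 time. No 72 hr air array was analysed here. The question was whether O3 changed these genes and whether the loss of Il10 altered that change.

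An alpha beta T cell receptor recognises peptides held by MHC molecules but has no signalling part of its own. It is carried to the cell surface with the CD3 delta, epsilon and gamma chains and with CD3 zeta, encoded by Cd247, whose tails are phosphorylated when the receptor binds. The co-receptors CD4 and CD8 alpha hold the MHC molecule, CD2 adheres to a ligand on other cells, CD5 dampens receptor signalling, and Thy1 is a lipid-anchored protein of mouse T cells that fibroblasts and nerve cells also carry. In the lung such T cells patrol the tissue and its airways. In RNA from a whole lung, fewer T cells and less RNA per T cell cannot be told apart.

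The genes of the CD3 delta, epsilon and gamma chains lie together on chromosome 9 of the mouse genome (RefSeq, GRCm38.p6): Cd3g at chr9:44969572-44980431 and Cd3d at chr9:44981769-44987052, on opposite strands with 1.34 kb between their spans, and Cd3e at chr9:44998735-45009663. Thy1 is on the same chromosome, at chr9:44043384-44048579. Cd247 is at chr1:165779952-165871153, which starts 34.8 Mb beyond the end of Il10. Cd4 (chr6:124864693-124888247) and Cd8a (chr6:71373427-71379171) share chromosome 6, Cd2 is at chr3:101275908-101287939, and Cd5 is at chr19:10718107-10739026. The 250 bases before the start site in the RefSeq tables (GRCm38.p6) were found for 6 of the 9 genes. They are shown for the signalling chains, because their genes varied together across arrays, and for Cd5, the gene outside the complex that followed them most closely among the members. Capitals mark the letters ACTTCC, or GGAAGT on the other strand, the core bound by ETS factors. The first letter is 199 bases before the start site in Cd3d, 18 in Cd3e, 58 in Cd247 and 51 in Cd5, and each window reads 5′ to 3′ on the gene's own strand. The windows of Cd3d, Cd3e, Cd247 and Cd5 belong to start sites within the gene's span, so they reach into it.
Cd3d (chr9:44981536-44981785, plus strand): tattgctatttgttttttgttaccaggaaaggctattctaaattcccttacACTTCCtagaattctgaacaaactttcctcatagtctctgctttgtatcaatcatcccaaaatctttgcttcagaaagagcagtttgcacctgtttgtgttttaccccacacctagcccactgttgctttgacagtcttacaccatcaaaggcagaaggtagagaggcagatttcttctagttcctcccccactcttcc
Cd3e (chr9:45009612-45009861, minus strand): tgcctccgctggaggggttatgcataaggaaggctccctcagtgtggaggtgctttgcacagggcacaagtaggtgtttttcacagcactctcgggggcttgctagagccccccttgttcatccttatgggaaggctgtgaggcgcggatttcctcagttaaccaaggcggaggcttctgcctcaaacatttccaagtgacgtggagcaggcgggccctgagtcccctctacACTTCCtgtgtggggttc
Cd3g (chr9:44980432-44980681, minus strand): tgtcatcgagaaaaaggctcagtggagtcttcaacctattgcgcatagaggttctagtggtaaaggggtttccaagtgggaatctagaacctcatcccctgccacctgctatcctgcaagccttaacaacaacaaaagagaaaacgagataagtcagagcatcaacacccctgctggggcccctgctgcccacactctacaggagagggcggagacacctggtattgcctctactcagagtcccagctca
Cd247 (chr1:165788431-165788680, plus strand): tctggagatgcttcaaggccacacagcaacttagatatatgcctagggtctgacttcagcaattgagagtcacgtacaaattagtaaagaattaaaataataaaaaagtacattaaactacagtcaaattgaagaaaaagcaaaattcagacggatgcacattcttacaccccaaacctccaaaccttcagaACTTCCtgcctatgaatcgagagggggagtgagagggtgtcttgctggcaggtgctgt
Cd5 (chr19:10738975-10739224, minus strand): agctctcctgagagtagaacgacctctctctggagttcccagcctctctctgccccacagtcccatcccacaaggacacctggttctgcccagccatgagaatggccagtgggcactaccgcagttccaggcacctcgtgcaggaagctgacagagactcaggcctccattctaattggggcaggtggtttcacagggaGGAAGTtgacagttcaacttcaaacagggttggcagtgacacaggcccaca
The core was found in 4 of the 6 windows, and not in those of Cd3g and Cd8a. Of the 32851 RefSeq windows of this length, 19.7% held it on either strand. E-box letters (CANNTG) and GATA letters (AGATAA) were looked for too. The E-box letters were in all 6 windows and in 66.2% of RefSeq windows. GATA letters were in the window of Cd3g alone and in 9.99% of RefSeq windows. A match describes the letters only and is not a binding site.

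Array values are on the log2 scale, so a difference of 1 is a 2-fold difference, and levels of different probe sets cannot be set against each other. On the arrays used, Sftpc, a surfactant gene of alveolar type 2 cells, lay between 14.29 and 14.48, and Scgb1a1, the main secreted protein of club cells, between 14.08 and 14.40. The array of Il10-/- lungs at 24 hr of O3, replicate 2, was left out. Its Sftpc value was 6.36 and its Scgb1a1 value 8.43. It correlated with the other arrays at r between 0.8468 and 0.8787, where the lowest r among the other 25 was 0.9645. The Il10 probe set lay between 6.29 and 7.71 on arrays of Il10-/- lungs and between 3.92 and 4.25 on those of Il10+/+ lungs, except that the library labelled Il10-/- air 48 hr replicate 1 had 3.87. Which bases of Il10 it covers was not given, so it does not check the deletion itself.

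None of the 9 genes passed the test after O3 in either genotype. In Il10-/- lungs the median log2 changes over the 9 genes were -0.05, -0.12 and -0.08 at 24, 48 and 72 hr, with 7, 8 and 7 genes below air. The source names of some arrays end in a letter c. Among Il10-/- lungs these are all air arrays but 24 hr replicate 2, and no O3 array at 48 or 72 hr. With this letter as a covariate, Cd3d, Cd247, Cd5 and Thy1 turned above air at 48 hr (0.18, 0.14, 0.11 and 0.02). At 72 hr Cd3d, Cd247, Cd8a and Cd2 did (0.16, 0.11, 0.01 and 0.13), and at 24 hr Cd8a (0.02). In Il10+/+ lungs the medians were -0.31, -0.42 and -0.19, with all 9 genes below air at each time. The Il10+/+ signs held with each array centred on its median. Cd8a turned to 0.06 at 24 hr and 0.02 at 72 hr without Il10+/+ air 48 hr replicate 2, and to 0.04 at 24 hr with air of the same exposure time, and Cd4 turned to 0.01 at 24 hr with the mean of its probe sets. The groups were compared with limma, each gene's change being adjusted by the Benjamini-Hochberg method over all 12394 genes with a threshold of 0.05. By this test 0 of 9 genes were called at 24, 48 or 72 hr in Il10-/- lungs, where 2.09%, 6.33% and 5.87% of all genes were. In Il10+/+ lungs 0 of 9 were called at these times, against 0.0484%, 3.71% and 3.15% of all genes. At an unadjusted p under 0.05, 0, 1 and 0 members passed in Il10-/- lungs, all of them lower, where 9.34% of all genes were lower at 48 hr. In the Il10+/+ genotype 1, 4 and 0 members passed, all lower, against 2.4% of all genes at 24 hr and 8.04% at 48 hr. The 3 comparisons within a genotype share its 4 air arrays, so their common direction is not 3 separate results. Without the library labelled Il10-/- air 48 hr replicate 1 also, 0 members were called in any of the 17 comparisons. The median over all genes tested lay between -0.029 and 0.035 in these 6 comparisons.

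**Figure D1:**
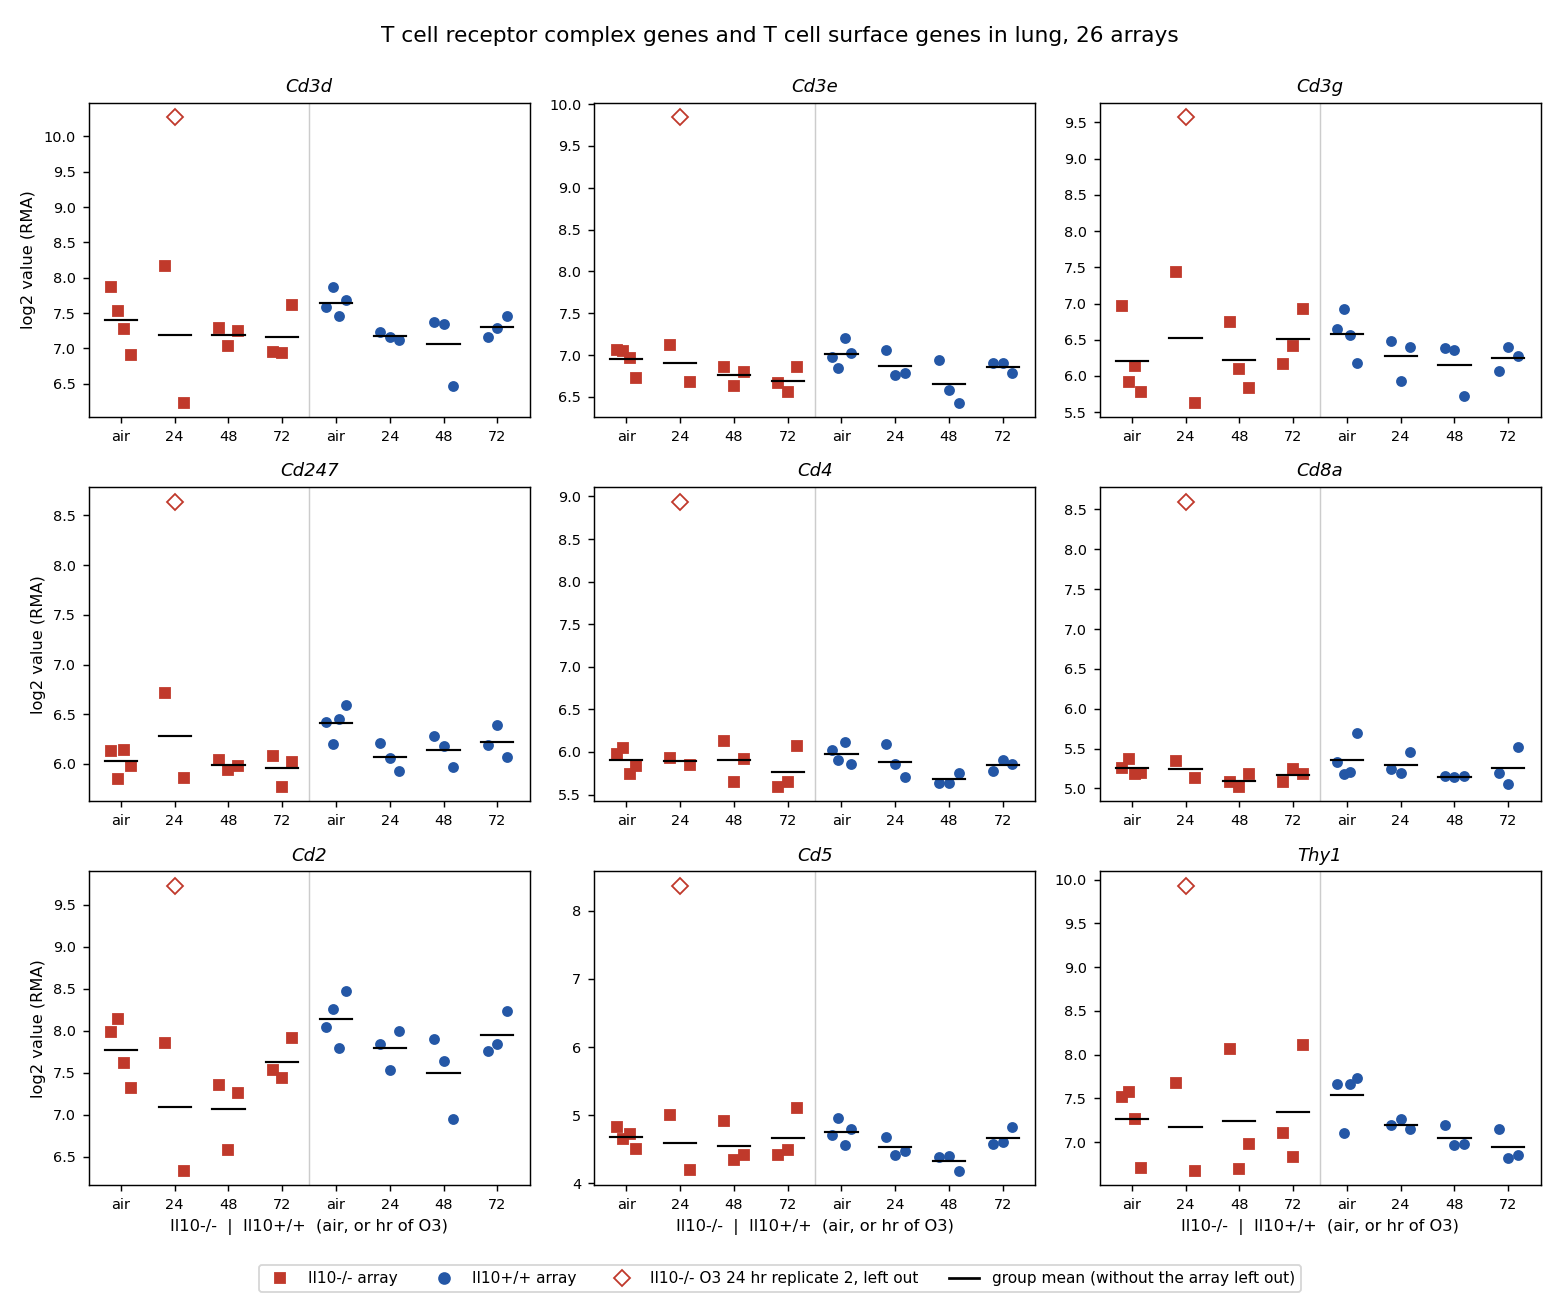
Log2 values (vertical axes) of the 9 genes on all 26 arrays, with Il10-/- groups (red squares) left and Il10+/+ groups (blue circles) right, each in the order air, 24, 48 and 72 hr of O3. Black lines are group means without the open diamond, Il10-/- O3 24 hr replicate 2, which lies above every other array for each gene, and Il10+/+ air has the highest of the 8 means in all 9 panels.

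Among the CD3 chains, Cd3d had log2 values of 7.87, 7.53, 7.28 and 6.90 in air, 8.16 and 6.23 at 24 hr, 7.29, 7.03 and 7.24 at 48 hr, and 6.95, 6.94 and 7.61 at 72 hr of O3 in Il10-/- lungs. The Il10+/+ lungs had 7.58, 7.87, 7.46 and 7.68 in air, 7.23, 7.16 and 7.12 at 24 hr, 7.37, 7.34 and 6.46 at 48 hr, and 7.16, 7.29 and 7.46 at 72 hr of O3. The 24 and 48 hr O3 arrays of Il10+/+ lungs all lay below their air arrays, whereas in Il10-/- lungs the highest and the lowest of the 25 arrays were the 2 left at 24 hr. At 24 hr Cd3d was the only member that was lower without overlap, as 3.59% of all genes were, and at 48 hr it was 1 of 4 members (with Cd4, Cd8a and Cd5), as 8.63% of all genes were. The change in Il10-/- lungs was -0.20 ± 0.35 (SE) at 24 hr, -0.21 ± 0.31 at 48 hr and -0.23 ± 0.31 at 72 hr, with adjusted p = 0.834, 0.801 and 0.739 by limma. In Il10+/+ lungs it was -0.48 ± 0.31, -0.59 ± 0.31 and -0.35 ± 0.31 (limma adjusted p = 0.898, 0.359 and 0.673). The 95% interval at 48 hr in Il10+/+ lungs ran from -1.24 to 0.05.

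Cd3e, whose chain pairs with both CD3 delta and CD3 gamma, had values of 7.06, 7.05, 6.97 and 6.73 in air, 7.12 and 6.68 at 24 hr, 6.86, 6.63 and 6.80 at 48 hr, and 6.66, 6.56 and 6.86 at 72 hr of O3 in Il10-/- lungs. Values in Il10+/+ lungs were 6.98, 6.85, 7.20 and 7.03 in air, 7.06, 6.76 and 6.78 at 24 hr, 6.94, 6.58 and 6.43 at 48 hr, and 6.90, 6.90 and 6.78 at 72 hr. Each O3 group overlapped its air group, and the arrays of Il10+/+ lungs held both the highest value, in air, and the lowest, at 48 hr. Its most negative change in Il10-/- lungs was -0.26 ± 0.13 at 72 hr (limma adjusted p = 0.278). At 48 hr Cd3e changed by -0.19 ± 0.13 in Il10-/- lungs (unadjusted p = 0.169 by limma) and by -0.36 ± 0.13 in Il10+/+ lungs (unadjusted p = 0.0108, limma adjusted p = 0.142). Without Il10+/+ O3 48 hr replicate 1, the highest of its group, the 48 hr change in Il10+/+ lungs was -0.51 and passed the test (limma adjusted p = 0.0469).

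Cd3g varied more between arrays of a group than any other member, with a residual SD of 0.48. Its values were 6.97, 5.91, 6.14 and 5.78 in air, 7.43 and 5.63 at 24 hr, 6.74, 6.09 and 5.84 at 48 hr, and 6.17, 6.41 and 6.93 at 72 hr of O3 in Il10-/- lungs. The Il10+/+ lungs had 6.65, 6.92, 6.57 and 6.18 in air, 6.48, 5.93 and 6.40 at 24 hr, 6.39, 6.36 and 5.72 at 48 hr, and 6.07, 6.40 and 6.28 at 72 hr. All O3 groups overlapped their air group, and in Il10-/- lungs the single air arrays spanned 1.19. The changes were 0.33 ± 0.38, 0.02 ± 0.34 and 0.30 ± 0.34 at 24, 48 and 72 hr in Il10-/- lungs and -0.31 ± 0.34, -0.42 ± 0.34 and -0.33 ± 0.34 in Il10+/+ lungs. The difference between genotypes in the change was 0.64 ± 0.51, 0.45 ± 0.47 and 0.63 ± 0.47 at these times, with 95% intervals that all held 0.

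Cd247, the zeta chain, had values of 6.13, 5.85, 6.14 and 5.98 in air, 6.71 and 5.86 at 24 hr, 6.04, 5.94 and 5.98 at 48 hr, and 6.08, 5.77 and 6.02 at 72 hr of O3 in Il10-/- lungs. Values in Il10+/+ lungs were 6.42, 6.20, 6.45 and 6.59 in air, 6.21, 6.06 and 5.93 at 24 hr, 6.28, 6.18 and 5.97 at 48 hr, and 6.19, 6.39 and 6.07 at 72 hr. In air, all 4 arrays of Il10-/- lungs lay below all 4 of Il10+/+ lungs, the only member of which this was true, where 3.05% of all genes were lower without overlap. The difference was -0.39 ± 0.14 (unadjusted p = 0.00991, a limit of 0.05 that 4.41% of all genes passed in this direction) and did not pass the test over all genes (limma adjusted p = 0.483). Without the library labelled Il10-/- air 48 hr replicate 1 it was -0.43 (limma adjusted p = 0.485). In Il10-/- lungs Cd247 changed by 0.26 ± 0.17 at 24 hr, -0.03 ± 0.15 at 48 hr and -0.06 ± 0.15 at 72 hr (limma adjusted p = 0.449, 0.942 and 0.857). In Il10+/+ lungs the changes were -0.34 ± 0.15, -0.27 ± 0.15 and -0.19 ± 0.15 (limma adjusted p = 0.807, 0.388 and 0.600). Its difference between genotypes in the 24 hr change, 0.61 ± 0.22, was the only one of any member with an unadjusted p under 0.05 (0.0132, limma adjusted p = 0.581), as 4.29% of all genes had in this direction. It turned on 1 array: without Il10-/- O3 24 hr replicate 3 it was 1.03, and without replicate 1 it was 0.18. Each of these fits has 1 array in that group, whose spread is assumed to be that of the other groups.

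Of the co-receptors, Cd4, found on helper T cells and also on some dendritic cells of mice, had values of 5.98, 6.05, 5.74 and 5.84 in air, 5.93 and 5.85 at 24 hr, 6.13, 5.65 and 5.92 at 48 hr, and 5.59, 5.65 and 6.07 at 72 hr of O3 in Il10-/- lungs. The Il10+/+ lungs had 6.02, 5.90, 6.12 and 5.86 in air, 6.09, 5.86 and 5.71 at 24 hr, 5.64, 5.64 and 5.75 at 48 hr, and 5.78, 5.91 and 5.86 at 72 hr. The 3 arrays of Il10+/+ lungs at 48 hr lay below the 4 in air, and the other O3 groups overlapped air. The changes in Il10-/- lungs were -0.01 ± 0.14, 0.00 ± 0.12 and -0.13 ± 0.12 at 24, 48 and 72 hr. In Il10+/+ lungs they were -0.09 ± 0.12, -0.30 ± 0.12 and -0.12 ± 0.12 (unadjusted p = 0.0253 and limma adjusted p = 0.220 at 48 hr).

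Cd8a, the co-receptor chain of cytotoxic T cells, moved least, its group means spanning 0.26. It had 5.26, 5.37, 5.18 and 5.20 in air, 5.35 and 5.13 at 24 hr, 5.08, 5.02 and 5.18 at 48 hr, and 5.08, 5.25 and 5.18 at 72 hr of O3 in Il10-/- lungs. Values in Il10+/+ lungs were 5.33, 5.18, 5.21 and 5.70 in air, 5.24, 5.20 and 5.46 at 24 hr, 5.15, 5.14 and 5.15 at 48 hr, and 5.19, 5.06 and 5.52 at 72 hr. The 48 hr arrays of Il10+/+ lungs again lay below air, by a small margin. The 48 hr change was -0.16 ± 0.12 in Il10-/- lungs (limma adjusted p = 0.513) and -0.21 ± 0.12 in Il10+/+ lungs (limma adjusted p = 0.402). A further Cd8a probe set, which followed the chosen one at r = 0.65, changed by -0.54 at 48 hr in Il10-/- lungs (adjusted p = 0.0798 by limma over all single-symbol probe sets). The second Cd4 probe set and the 3 other Cd247 probe sets followed the chosen ones at r of 0.17 and of -0.39 to 0.19, and none of them passed the test in any comparison.

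Among the other surface proteins, Cd2, also carried by NK cells and in mice by B cells, had the widest span of group means, 1.07. Its values were 7.99, 8.14, 7.62 and 7.32 in air, 7.86 and 6.33 at 24 hr, 7.36, 6.58 and 7.26 at 48 hr, and 7.53, 7.44 and 7.91 at 72 hr of O3 in Il10-/- lungs. The Il10+/+ lungs had 8.04, 8.26, 7.79 and 8.48 in air, 7.84, 7.53 and 8.00 at 24 hr, 7.90, 7.64 and 6.95 at 48 hr, and 7.76, 7.84 and 8.24 at 72 hr. Both genotypes had their lowest O3 means at 24 and 48 hr, and every O3 group overlapped air. In Il10-/- lungs Cd2 changed by -0.67 ± 0.33, -0.70 ± 0.29 and -0.14 ± 0.29 at 24, 48 and 72 hr, and only the 48 hr change had an unadjusted p under 0.05 (0.0272, limma adjusted p = 0.184). In Il10+/+ lungs the changes were -0.36 ± 0.29, -0.65 ± 0.29 and -0.19 ± 0.29 (unadjusted p = 0.0399 and limma adjusted p = 0.271 at 48 hr). Over the 3 O3 times Cd2 was -0.48 ± 0.19 in Il10-/- relative to Il10+/+ lungs (unadjusted p = 0.0196, limma adjusted p = 0.286, where 7.79% of all genes were lower at an unadjusted p under 0.05), with a 95% interval from -0.87 to -0.08.

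Cd5, on T cells and on B-1 cells, had 4.82, 4.65, 4.73 and 4.50 in air, 5.00 and 4.19 at 24 hr, 4.91, 4.34 and 4.41 at 48 hr, and 4.42, 4.49 and 5.10 at 72 hr of O3 in Il10-/- lungs. Values in Il10+/+ lungs were 4.71, 4.96, 4.56 and 4.79 in air, 4.68, 4.42 and 4.48 at 24 hr, 4.39, 4.40 and 4.18 at 48 hr, and 4.58, 4.60 and 4.82 at 72 hr. At 48 hr the Il10+/+ arrays lay below those in air and below those at 24 hr. With the groups of each gene ordered by mean, this was the only pair of neighbours, of the 7 for each gene, whose arrays did not overlap. The change at 48 hr was -0.12 ± 0.18 (limma adjusted p = 0.797) in Il10-/- lungs, and -0.43 ± 0.18 (unadjusted p = 0.0243, limma adjusted p = 0.217) in Il10+/+ lungs. At 72 hr the changes were 0.00 ± 0.18 in Il10-/- lungs and -0.09 ± 0.18 in Il10+/+ lungs.

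Thy1 had 7.51, 7.57, 7.26 and 6.70 in air, 7.67 and 6.67 at 24 hr, 8.06, 6.69 and 6.98 at 48 hr, and 7.10, 6.83 and 8.11 at 72 hr of O3 in Il10-/- lungs. The Il10+/+ lungs had 7.66, 7.10, 7.66 and 7.73 in air, 7.19, 7.26 and 7.15 at 24 hr, 7.19, 6.97 and 6.98 at 48 hr, and 7.15, 6.82 and 6.85 at 72 hr. In Il10+/+ lungs 3 of the 4 air arrays stood above every O3 array and the remaining one among them. Single O3 arrays of Il10-/- lungs, 1 at 48 hr and 1 at 72 hr, were the highest of all 25. Thy1 changed by -0.09 ± 0.35, -0.02 ± 0.31 and 0.09 ± 0.31 at 24, 48 and 72 hr in Il10-/- lungs, and by -0.34 ± 0.31, -0.49 ± 0.31 and -0.60 ± 0.31 in Il10+/+ lungs (limma adjusted p = 0.958, 0.456 and 0.366 in the Il10+/+ genotype). The difference between genotypes in the 72 hr change was 0.68 ± 0.43, with a 95% interval from -0.22 to 1.58. The mean level of 13 fibroblast genes averaged 10.95 at 72 hr of O3 and 11.13 in air in Il10-/- lungs, and 11.00 and 11.21 in Il10+/+ lungs.

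**Figure D2:**
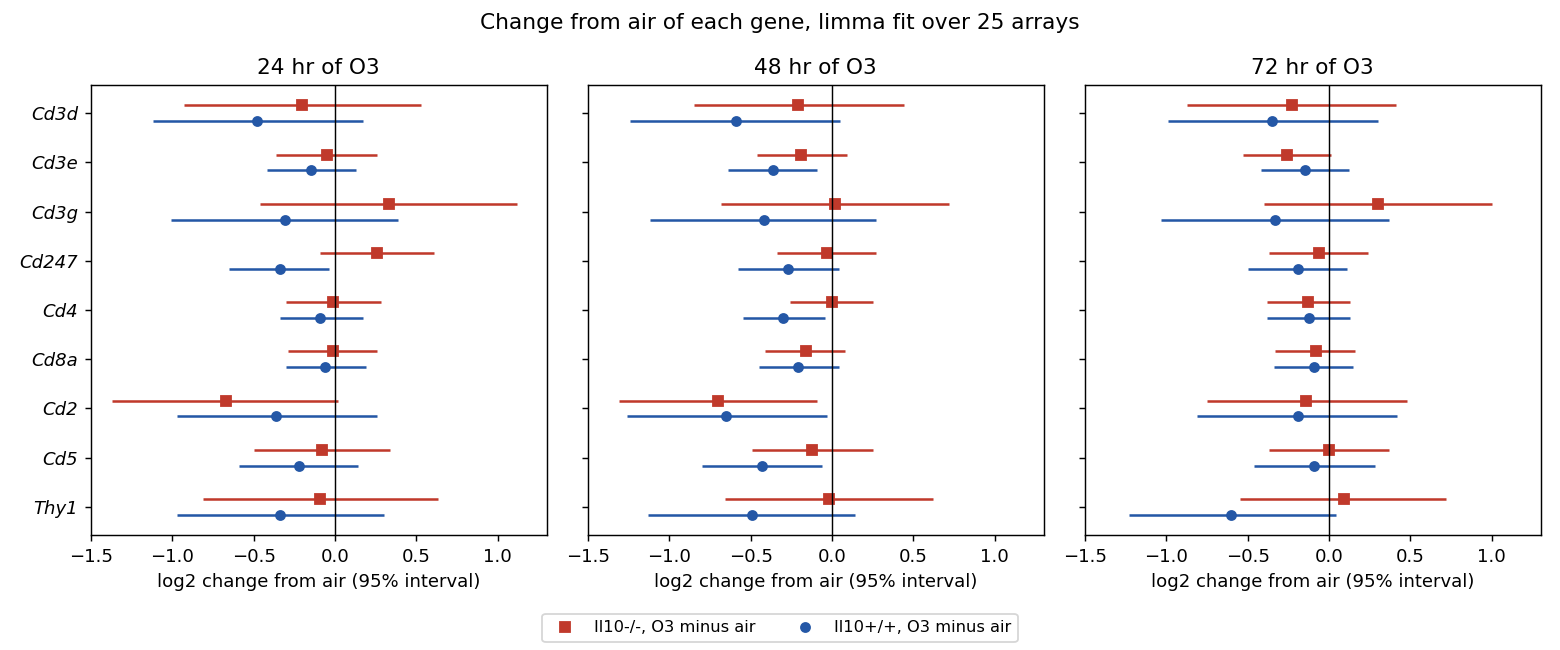
Log2 change from air (horizontal axis) of each gene at 24, 48 and 72 hr of O3 in Il10-/- lungs (red squares, upper of each pair) and Il10+/+ lungs (blue circles), with 95% intervals from the limma fit over 25 arrays. All Il10+/+ points lie left of 0, and 1 Il10-/- interval and 5 Il10+/+ intervals do not reach it.

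When the 8 groups were ordered by mean, Il10+/+ air was highest for all 9 genes. The lowest was Il10+/+ O3 48 hr for 5 of them (Cd3d, Cd3e, Cd3g, Cd4 and Cd5), Il10-/- O3 48 hr for Cd8a and Cd2, Il10-/- O3 72 hr for Cd247 and Il10+/+ O3 72 hr for Thy1. In air all 9 differences of Il10-/- from Il10+/+ lungs were below 0, with a median of -0.25, and 0 of 9 genes were called, against 0.00807% of all genes. This comparison shares the Il10+/+ air arrays with the O3 changes above. At 24, 48 and 72 hr of O3 the median differences of Il10-/- from Il10+/+ lungs were 0.02, 0.12 and -0.09, with 0 of 9 genes called at each time, against 0.662%, 0.00807% and 0.0242% of all genes. Over the 3 O3 times 0 of 9 were called, against 0.637% of all genes, and Cd2 alone had an unadjusted p under 0.05.

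With the 3 O3 times averaged, 0 of 9 genes were called against air in Il10-/- lungs, against 7.55% of all genes, and 0 of 9 in Il10+/+ lungs, against 3.66%. The unadjusted count was 1 (Cd2) in Il10-/- lungs and 2 (Cd3e and Cd247) in Il10+/+ lungs, all lower, against 9.03% and 8.04% of all genes. The median over members was -0.07 in Il10-/- lungs, between -0.50 for Cd2 and 0.22 for Cd3g. In Il10+/+ lungs it was -0.27, between -0.48 for Thy1 and -0.12 for Cd8a. The difference between genotypes in this mean change had a median of 0.18 over members, with 0 of 9 called and 0% of all genes called. The same was true of the difference at each time. In F tests of limma, exposure was called for 0 of 9 members and 17.2% of all genes, genotype for 0 of 9 and 1.75%, and their interaction for 0 of 9 and 0%. Cd2 came nearest for exposure (limma adjusted p = 0.0798) and for genotype (limma adjusted p = 0.158). The two-way analysis of variance of the study's methods, at its threshold of p under 0.01, also called 0 of 9 members for exposure, genotype and interaction, against 16.8%, 5.38% and 0.799% of all genes.

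The values at 24 hr of O3 in Il10-/- lungs rest on 2 arrays that stood apart from each other at these genes. Replicate 1 exceeded replicate 3 at all 9 genes, by a median of 0.85, from 0.08 for Cd4 to 1.93 for Cd3d. For Cd3d, Cd3g and Cd2 the gap was over 1, a size reached by 3.83% of all genes in this direction. The median over members of the within-group range was 0.28 to 0.48 in the other groups. Other lists of marker genes differed too: replicate 1 exceeded replicate 3 by a median of 1.18 over 16 B cell genes, 1.00 over 13 fibroblast genes, 0.97 over 4 red blood cell genes, 0.85 over 19 cell division genes, 0.64 over 14 NK cell genes and 0.47 over 10 dendritic cell genes. The median difference was -0.47 over 9 club cell genes, -0.31 over 10 neutrophil genes, -0.15 over 10 alveolar type 2 genes and 0.15 over 12 endothelial genes. The source name of replicate 1 ends in a letter c, found on 5 of the 25 arrays, and that of replicate 3 does not. The part of these values in the results at 24 hr was not tested.

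With either of these arrays alone in the group, its spread assumed to be that of the other groups, members were called against air in opposite directions. Without replicate 1, these were Cd3d, at -1.16, and Cd2, at -1.43. Without replicate 3, they were Cd3g, at 1.22, and Cd247, at 0.69. Each of these fits also called more of all genes than the fit with the 2 arrays together. With both arrays, and with the array left out added as well, no member was called. With all 26 arrays every member had a 24 hr change above 0. The sign turned for Cd3d (0.83), Cd3e (0.93), Cd4 (1.01), Cd8a (1.11), Cd2 (0.21), Cd5 (1.18) and Thy1 (0.83). Their limma adjusted p ran from 0.135 for Cd8a to 0.810 for Cd2. Without replicate 1, Cd2 was also called over the O3 times in Il10-/- lungs, at -0.76 against air and -0.73 against Il10+/+ lungs. Again more of all genes were called than with both arrays.

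On the array left out, replicate 2, all 9 genes were higher than the mean of replicates 1 and 3, by a median of 3.04, from 2.36 for Cd247 to 3.78 for Cd5. Of all genes, 13.1% were higher there by over 1. Its values were 10.27 for Cd3d, 9.84 for Cd3e, 9.57 for Cd3g and 8.64 for Cd247, and 8.94 for Cd4, 8.60 for Cd8a, 9.73 for Cd2, 8.37 for Cd5 and 9.93 for Thy1. Each was above the highest of the other 25 arrays, by 1.25 for Cd2 up to 3.27 for Cd5. On the same array 10 alveolar type 2 genes had a median difference of -5.05, 9 club cell genes one of -5.83, 12 endothelial genes one of -2.96 and 13 fibroblast genes one of -1.34. It was 4.60 over 16 B cell genes, 4.51 over 4 red blood cell genes and 3.82 over 19 cell division genes. Cd79a, a chain of the B cell receptor, was 12.23 there and 6.19 to 9.56 on the others, and Ncr1, an NK cell receptor, was 5.53 there and 4.46 to 5.40 on the others.

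**Figure D3:**
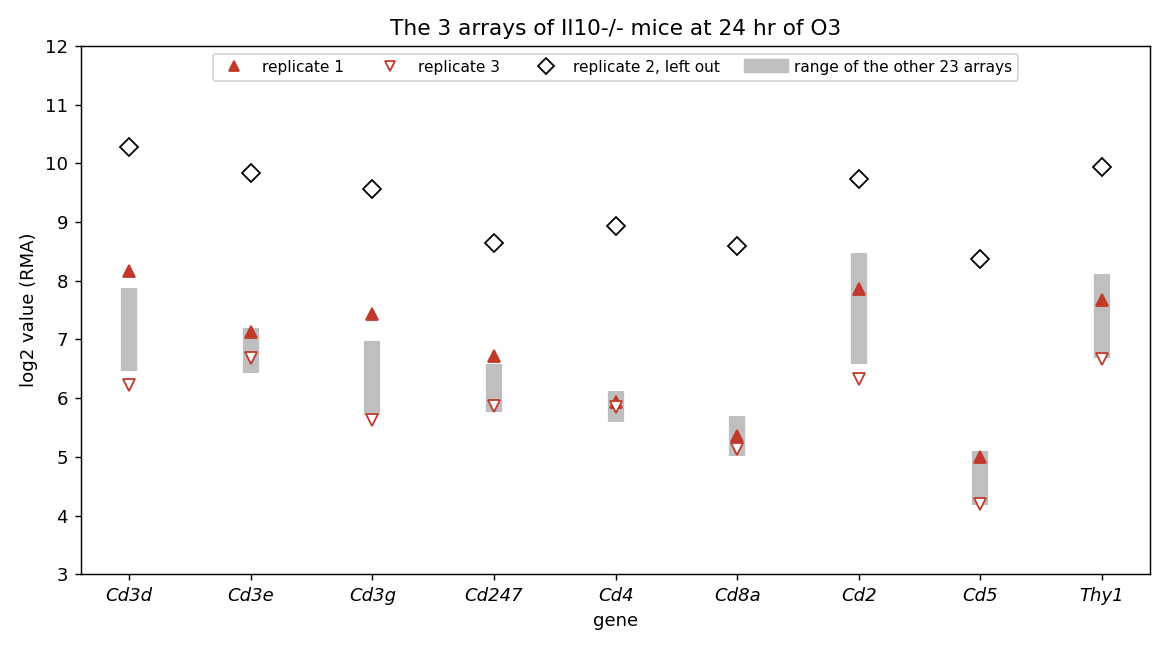
Log2 values of the 9 genes on the 3 arrays of Il10-/- lungs at 24 hr of O3 (filled triangles, replicate 1, open triangles, replicate 3, diamonds, replicate 2, left out), over the range of the other 23 arrays (grey bars). Replicate 2 lies above the bar at all 9 genes, and replicates 1 and 3 lie above and below the bar at Cd3d and Cd3g.

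Across the 25 arrays the 9 genes varied together to unequal degrees. All 36 pairs of genes had a positive Pearson's r, from 0.11 for Cd3g with Cd8a to 0.81 for Cd3d with Cd5, with a median of 0.55. With each group's mean taken out, 35 of 36 stayed above 0, the median was 0.56 and the highest was 0.89, for Cd3d with Cd2. Without Il10-/- O3 24 hr replicate 3 the median was 0.52 and all 36 were positive. Within Il10-/- lungs the median was 0.64 over 12 arrays, and within Il10+/+ lungs 0.46 over 13. These are descriptions without a test, and all arrays share 1 normalization. Taken against the mean of Cd3d, Cd3e and Cd3g, Cd5 followed at r = 0.841 (rank 5 of 12394 genes), Cd2 at 0.706 (rank 42), Thy1 at 0.663 (rank 81) and Cd247 at 0.653 (rank 92). The co-receptors followed less closely, Cd4 at 0.486 (rank 531) and Cd8a at 0.297 (rank 1989).

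**Figure D4:**
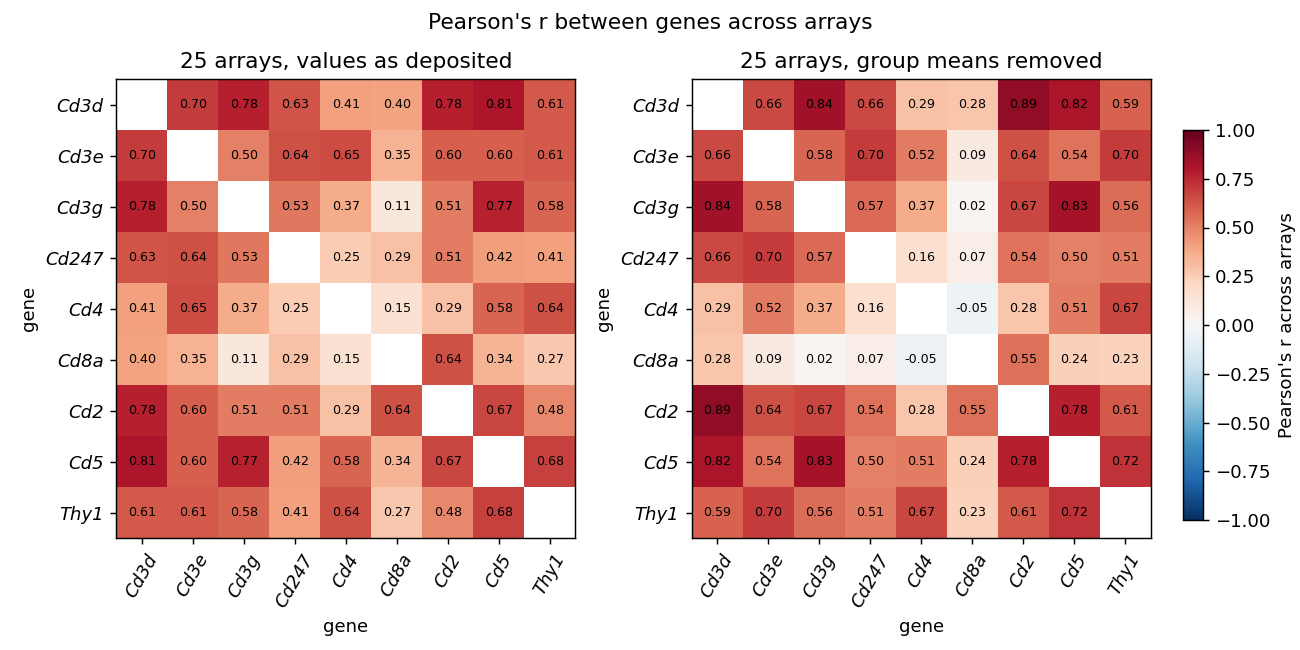
Pearson's r (colour and number) between each pair of the 9 genes over 25 arrays, with values as deposited (left) and with each group's mean removed (right). Cd3d, Cd3g, Cd2 and Cd5 form the reddest block, from 0.51 to 0.81 on the left and 0.67 to 0.89 on the right, and the row of Cd8a is the palest.

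The 10 other genes whose values were most like the mean of Cd3d, Cd3e and Cd3g included further parts of the T cell receptor. Trav9d-3 (r = 0.935) and Trbv1 (r = 0.897), variable segments of the receptor's alpha and beta chain genes, came first. Cd8b1, the partner chain of Cd8a, followed at 0.837, and Lat, the adaptor that is phosphorylated downstream of the receptor, was at 0.769. The rest were Sash3 (0.833), an adaptor of lymphocytes, Arhgdib (0.805) and Rac2 (0.787), both genes of blood cells, the blood cell myosin Myo1g (0.771), the GTPase Gimap7 of lymphocytes (0.770), and Plac8 (0.766). The likeness was computed over the same 25 arrays and says nothing of shared control.

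Genes of other lymphocytes varied with the CD3 chains. The permutation p-values of these correlations take no account of the 8 groups, so differences between groups enter them. The mean of Cd3d, Cd3e and Cd3g correlated with the mean of 16 B cell genes at r = 0.67 over 25 arrays (permutation p = 0.00023, adjusted p = 0.00063 over 7 relations) and Spearman's coefficient = 0.68 (permutation p = 2e-04, adjusted p = 7e-04). Without the 2 arrays farthest from the median of the CD3 mean, both of Il10-/- lungs at 24 hr of O3, r was 0.75. It was 0.79 with group means removed, 0.72 within Il10-/- and 0.94 within Il10+/+ lungs. With the mean of 14 NK cell genes r was 0.67 (permutation p = 2e-04, adjusted p = 0.00063) and Spearman's coefficient 0.62 (permutation p = 0.0011, adjusted p = 0.00192). It was 0.59 without the same 2 arrays, 0.73 with group means removed, 0.75 within Il10-/- lungs and 0.58 within Il10+/+ lungs. With 10 dendritic cell genes r was 0.37 (permutation p = 0.0654, adjusted p = 0.0916) and Spearman's coefficient 0.21 (permutation p = 0.304, adjusted p = 0.355). Here r was -0.03 without the same 2 arrays, 0.75 with group means removed, 0.68 within Il10-/- and -0.37 within Il10+/+ lungs. With 19 cell division genes r was -0.17 (permutation p = 0.414) and Spearman's coefficient -0.13 (permutation p = 0.527). There r was 0.34 with group means removed, 0.05 within Il10-/- and -0.52 within Il10+/+ lungs.

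Thy1 followed the CD3 chains at r = 0.66 (permutation p = 0.00029, adjusted p = 0.00063) and Spearman's coefficient = 0.71 (permutation p = 0.00014, adjusted p = 7e-04). Without its 2 farthest arrays r was 0.69. It was 0.65 with group means removed, 0.77 within Il10-/- and 0.43 within Il10+/+ lungs. With 13 fibroblast genes Thy1 had r = 0.30 (permutation p = 0.149, adjusted p = 0.174) and Spearman's coefficient = 0.27 (permutation p = 0.192, adjusted p = 0.269). Here r was 0.45 without the same 2 arrays, 0.26 with group means removed, 0.27 within Il10-/- and 0.48 within Il10+/+ lungs. Cd247 followed the CD3 chains at r = 0.65 (permutation p = 0.00036, adjusted p = 0.00063) and Spearman's coefficient = 0.64 (permutation p = 0.00073, adjusted p = 0.0017). Its r was 0.55 without its 2 farthest arrays, 0.68 with group means removed, 0.74 within Il10-/- and 0.62 within Il10+/+ lungs.

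**Figure D5:**
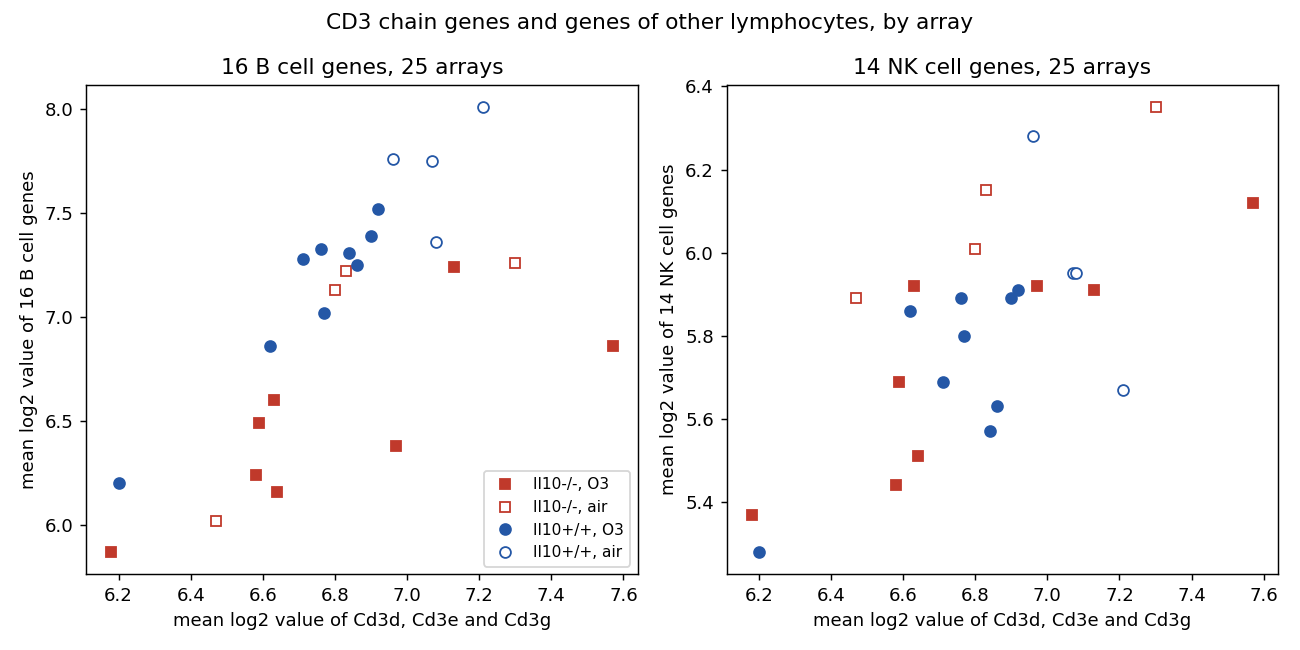
Mean log2 value of 16 B cell genes (left) and 14 NK cell genes (right) against that of Cd3d, Cd3e and Cd3g, 1 point an array, for Il10-/- (red squares) and Il10+/+ lungs (blue circles) in O3 (filled) or air (open). Both lists rise with the CD3 chains (r = 0.67 each), and on the left the Il10-/- points lie between 5.87 and 7.26 and the Il10+/+ points between 6.20 and 8.01.

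The B cell genes stood beside the lower T cell values in Il10+/+ lungs. Their mean lay between 6.20 and 7.39 at 48 hr of O3 and between 7.36 and 8.01 in air, with a median change of -0.85, all 16 genes below 0, and 0 of 16 called by limma. At an unadjusted p under 0.05, 9 of 16 were lower, against 8.04% of all genes. In air the mean of these genes lay between 6.02 and 7.26 in Il10-/- lungs and between 7.36 and 8.01 in Il10+/+ lungs, with 0 of 16 called and 13 lower at an unadjusted p under 0.05, against 4.41% of all genes. The NK cell genes lay between 5.28 and 5.89 at 48 hr of O3 and between 5.67 and 6.28 in air in Il10+/+ lungs (0 of 14 called, 3 lower at an unadjusted p under 0.05, against 8.04% of all genes). In the same comparison the mean of 4 red blood cell genes lay between 6.30 and 6.66 in O3 and between 6.82 and 7.07 in air, and that of 12 endothelial genes between 10.86 and 10.98 in O3 and between 11.13 and 11.25 in air. The mean of 10 dendritic cell genes lay between 6.81 and 7.05 in O3 and between 6.66 and 6.77 in air, and that of 19 cell division genes between 7.47 and 7.95 in O3 and between 6.15 and 6.36 in air. None of these 4 lists overlapped between O3 and air, the first pair being lower in O3 and the rest higher. The mean of the 9 members, 5.96 to 6.36 in O3 and 6.56 to 6.67 in air, did not overlap either. Of the T cell lists described below, receptor chains (4.26 to 4.65 and 4.75 to 4.84), signalling (6.51 to 6.69 and 6.73 to 6.83) and homing (6.17 to 6.58 and 6.61 to 6.76) were likewise lower. Co-stimulation (4.96 to 5.08 and 5.06 to 5.11) overlapped. The mean of the 9 members also lay below Il10+/+ air at 24 hr (6.24 to 6.45) and at 72 hr (6.31 to 6.43). In Il10-/- lungs this mean overlapped air (6.11 to 6.62) at 24 hr (5.84 to 6.80), 48 hr (6.00 to 6.50) and 72 hr (6.15 to 6.64). Over the O3 times in Il10-/- lungs, 2 of the 14 NK cell genes were called lower, where 7.55% of all genes were called in either direction. They were Klrk1, the activating receptor NKG2D, at -0.62 ± 0.16 (limma adjusted p = 0.0189), and Prf1, the pore-forming perforin, at -0.61 ± 0.18 (limma adjusted p = 0.0436). Klrk1 lost its call without Il10-/- air 24 hr replicate 1 (limma adjusted p = 0.103) and without the library labelled Il10-/- air 48 hr replicate 1 (0.0519), and Prf1 lost its call in 14 of the 25 leave-one-out fits (up to 0.162). Both genes are also used by CD8 T cells. The part of other cell types in the T cell values was not tested.

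Beyond the 9 genes, 57 genes of the T cell receptor and its pathway were measured in 4 lists, and 0 to 2 of them were called in any comparison. At 48 hr of O3 3.51% of the 57 were called in Il10-/- lungs, against 6.33% of all genes, and 1.75% in Il10+/+ lungs, against 3.71%. At an unadjusted p under 0.05, 2 were higher and 10 lower in Il10-/- lungs, where 9.69% of all genes were higher and 9.34% lower. In Il10+/+ lungs 1 was higher and 8 lower, where 8.38% of all genes were higher and 8.04% lower. The list of receptor chains and partners had 3 measured genes, Trbv13-2, Trat1 and Cd8b1, and 0 were called in the comparisons (1 of 3 lower at an unadjusted p under 0.05 at 48 hr of O3 in each genotype). By symbol, 6 variable segments of receptor genes were measured in all, of which Trbv13-2 is in the list and Trav9d-3, Trbv1, Trav12n-1, Trgv1 and Trgv4 are not, and 0 of the 6 were called in any comparison. At 48 hr of O3 Trav9d-3 changed by -0.21 ± 0.26 in Il10-/- lungs and -0.40 ± 0.26 in Il10+/+ lungs. Trbv1 changed by -0.19 ± 0.39 in Il10-/- lungs and -0.84 ± 0.39 in Il10+/+ lungs (limma adjusted p = 0.282 for the last). In the same order of genotypes, Trbv13-2 changed by -0.21 ± 0.11 and -0.20 ± 0.11, and Trav12n-1 by 0.05 ± 0.13 and -0.22 ± 0.13. For Trgv1 the changes were 0.02 ± 0.08 and 0.09 ± 0.08, and for Trgv4 0.16 ± 0.12 and -0.18 ± 0.12. The lowest adjusted p of the 6 was that of Trgv4 over the O3 times. It was higher by 0.27 ± 0.08 in Il10-/- than in Il10+/+ lungs (limma adjusted p = 0.122). Of 19 genes of receptor signalling 1 was called lower at 48 hr in each genotype, and it was Prkcq, protein kinase C theta, which acts below the receptor and is also made in muscle. Prkcq lay between 6.33 and 6.84 at 48 hr of O3 and between 6.79 and 7.10 in air in Il10-/- lungs, and between 6.54 and 6.80 at 48 hr of O3 and between 6.89 and 7.18 in air in Il10+/+ lungs. The groups overlapped in Il10-/- lungs and did not in Il10+/+ lungs, where 8.63% of all genes were lower without overlap. It changed by -0.42 ± 0.11 in Il10-/- lungs and -0.44 ± 0.11 in Il10+/+ lungs (limma adjusted p = 0.0276 and 0.0320). At 72 hr Prkcq changed by -0.41 ± 0.11 in Il10-/- lungs and -0.49 ± 0.11 in Il10+/+ lungs (limma adjusted p = 0.0376 and 0.0152). It was again the only gene called in the list, where 5.87% and 3.15% of all genes were called. Over the O3 times in Il10+/+ lungs it changed by -0.39 ± 0.09 (limma adjusted p = 0.0138), where 3.66% of all genes were called. With each of the 25 arrays left out in turn, the 48 hr call was lost 4 times in Il10-/- lungs and 5 times in Il10+/+ lungs (highest limma adjusted p = 0.165 and 0.181), and the 72 hr call 5 and 3 times (0.147 and 0.125), each time on leaving out an array of the groups compared. The call over the O3 times in Il10+/+ lungs was lost without Il10+/+ air 24 hr replicate 1 (limma adjusted p = 0.0685) and without replicate 2 (0.0615).

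Ptprc, the phosphatase CD45 of all white blood cells, was the other signalling gene called. At 24 hr of O3 it was 9.19 and 9.91 in Il10-/- lungs, and 10.03 to 10.69 in air. The change was -0.82 ± 0.19 (limma adjusted p = 0.0276), where 2.09% of all genes were called. Ptprc was 10.27 to 10.60 in Il10+/+ lungs at the same time. The difference was -0.91 ± 0.20 (limma adjusted p = 0.0415), where 0.662% of all genes were called. Without Il10-/- O3 24 hr replicate 1, the lower of the arrays, which leaves 1 array in the group, the change was -0.46 and the difference -0.55 (limma adjusted p = 0.243 and 0.179). The change also lost its call without either 24 hr air array of Il10-/- lungs (0.0779 and 0.0520), and the difference was lost in 14 of the 25 leave-one-out fits, among them that without the library labelled Il10-/- air 48 hr replicate 1 (0.0506). Of 17 genes of T cell homing and transcription 1 was called at 48 hr in Il10-/- lungs, where 6.33% of all genes were. It was Lef1, a transcription factor of naive T cells, at -0.47 ± 0.11 (limma adjusted p = 0.00966). Its 3 arrays were 4.32 to 4.41, against 4.62 to 5.03 in air. The call was lost without Il10-/- O3 48 hr replicate 3 (limma adjusted p = 0.0505). In Il10+/+ lungs Lef1 lay between 4.39 and 4.48 at 48 hr and between 4.68 and 4.90 in air. Of all genes, 8.63% were lower without overlap there. Cxcr6, a chemokine receptor of tissue-resident T cells, was higher over the O3 times in Il10-/- than in Il10+/+ lungs. The difference was 0.72 ± 0.15 (limma adjusted p = 0.0231), where 0.637% of all genes were called. Its group means were 5.53, 6.10 and 5.91 at 24, 48 and 72 hr in Il10-/- lungs and 4.95, 5.29 and 5.15 in Il10+/+ lungs. That call was lost in 5 of the 25 leave-one-out fits, with limma adjusted p up to 0.0595. Of 18 genes of co-stimulation and activation, among them Ctla4, Ifng and Il17a, 0 were called in any comparison, and at 48 hr of O3 the list had a median change of -0.02 in Il10-/- lungs and -0.05 in Il10+/+ lungs, with 2 and 0 genes at an unadjusted p under 0.05.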

How the data were processed

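Total RNA of left lungs was hybridised to 26 Affymetrix mouse arrays. The authors made the deposited log2 values with the Robust Multichip Average method (background correction, quantile normalization, summary per probe set) in RMAExpress, whose version is not given in the sources used here. The values were used as deposited, with array medians between 6.54 and 6.68. The number of arrays limits the precision.

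Probe sets with several symbols (691) or none (1606) in GEO's platform annotation, which can be old, were left out, and of the remaining 20393 each gene was represented by its probe set of highest mean. Il10-/- O3 24 hr replicate 2 was left out by the rule that chose the genes. In 1 limma 3.58.1 fit (R 4.3.3) with 8 group means over 25 arrays, 17 comparisons were made, with empirical Bayes moderation and Benjamini-Hochberg adjustment over 12394 genes at 0.05. Intervals are 95%. Replicates are arrays of separate samples by the series' design. Correlations across arrays have two-sided p-values from 100000 permutations. Promoter letters came from RefSeq tables of GRCm38.p6. The steps were tested on simulated data.

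The 9 genes, the gene lists and the comparisons were chosen with earlier results of these data known. The genes named are the 9, Il10, 4 marker genes, the called genes of each list described (at most 4) and the 10 most like the CD3 mean. Also named are the measured genes of the receptor chain list, the measured variable segments, and Ctla4, Ifng and Il17a as examples of a list. Alternatives were all 26 arrays, array weights, the replicate number as a block, air of the same time, the lowest 33.3% of genes left out, the letter c as a covariate, a fit of the arrays compared alone, median centring, the mean of probe sets, each array left out and, added after seeing the data, no Il10-/- O3 24 hr arrays in the fit. Plots and sequences were made in Python 3.11.15 (matplotlib 3.10.9).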

Additional observations from a re-analysis of the deposited data

Results flagged for a closer look

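In Il10+/+ lungs in air, Thy1 was 7.10 on replicate 2 of the 24 hr exposure and 7.66 to 7.73 on the other 3 arrays, a gap of 0.878 of the whole range. Of the 18 groups of 4 arrays looked at in this way (each gene in air, in each genotype), chance gives such a gap in about 1 in 20.

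The array left out, Il10-/- O3 24 hr replicate 2, was used in no comparison of the main fit. Its Sftpc value was 6.36, against 14.29 to 14.48 on the arrays used. Its values stood above those of all 8 air arrays at every member. It had 10.27 for Cd3d (6.90 to 7.87 in air), 9.84 for Cd3e (6.73 to 7.20), 9.57 for Cd3g (5.78 to 6.97) and 8.64 for Cd247 (5.85 to 6.59). It had 8.94 for Cd4 (5.74 to 6.12), 8.60 for Cd8a (5.18 to 5.70), 9.73 for Cd2 (7.32 to 8.48), 8.37 for Cd5 (4.50 to 4.96) and 9.93 for Thy1 (6.70 to 7.73). With 1 array there is no test.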

How the results depend on the processing

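No member was called in any of the 17 comparisons with all 26 arrays, with the letter c as a covariate, with median centring or with the mean of probe sets. The same was true with the lowest 33.3% of genes left out (Cd8a and Cd5 among them). Only some of the 17 could be made with air of the same exposure time or with no Il10-/- O3 24 hr arrays in the fit. No member was called in those. With only the arrays compared, 1 member was called over the O3 times in Il10+/+ lungs (Thy1, -0.48). That setting called 878 of all 12394 genes there, against 454 in the main fit. With array weights, 1 was called at 48 hr in Il10-/- lungs (Cd2, -0.88) and 3 at 48 hr in Il10+/+ lungs (Cd3e, -0.34, Cd4, -0.34, and Cd5, -0.37). Array weights called 1649 of all genes at 48 hr in Il10-/- lungs and 2058 in Il10+/+ lungs, against 785 and 460 in the main fit. The cause was not tested. Leaving out each of the 25 arrays in turn gave 0 to 2 called members at 24 hr of O3 against air in Il10-/- lungs. It gave 0 to 1 each over the O3 times against air in Il10-/- lungs, at 48 hr against air in the Il10+/+ genotype, between genotypes at 24 hr and over the O3 times, and in the genotype difference of the 24 hr change, and 0 in the other comparisons. The arrays behind these calls were Il10-/- O3 24 hr replicates 1 and 3 and Il10+/+ O3 48 hr replicate 1. At 24 hr in Il10-/- lungs, without replicate 1 Cd3d (-1.16) and Cd2 (-1.43) were called against air and Cd2 (-1.45) against Il10+/+ lungs, and without replicate 3 Cd3g (1.22) and Cd247 (0.69) against air and Cd247 (0.64) against Il10+/+ lungs. These fits have 1 array in that group, assumed to vary like the other groups, and they called more of all genes in these comparisons than the main fit. Of the 19 changes with an unadjusted p under 0.05 or called under any setting, those that turned direction were all at 24 hr in Il10-/- lungs, none of them called where it turned. Against air these were Cd3d (0.83 with all 26 arrays and 0.76 without replicate 3, where it was -0.20), Cd2 (0.21 and 0.09, where it was -0.67), and, without replicate 1, Cd3g (-0.57) and Cd247 (-0.16). Against Il10+/+ lungs they were Cd2 (0.19 with all 26 arrays and 0.07 without replicate 3) and Cd247 (-0.01 with the mean of probe sets and -0.21 without replicate 1). Of all 153 changes (9 members, 17 comparisons), 20 turned sign with all 26 arrays, 19 with the letter c as a covariate, 9 with array weights, 7 with the mean of probe sets, 4 with median centring, 1 with the replicate block and 0 with only the arrays compared, none of them called. With air of the same time 8 of 90 turned, and 0 of 119 with the lowest genes left out and 0 of 99 with no Il10-/- O3 24 hr arrays. With the replicate number as a block, 0 members were called in any comparison. With group means removed, same-numbered arrays of different groups did not all vary together: of 96 pairs, 50 had r over 0.1. Their r ran from -0.305 to 0.461 with a median of 0.104. Over 184 pairs with another number the median was -0.0559, so same-numbered arrays were somewhat more alike. The numbers were not taken as a pairing in the main fit. Air of the same time could not be used at 72 hr.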
